A study of Mus musculus with 8 samples.

Results

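Müller glia are the radial glial cells of the retina. They clear potassium that neurons release through inwardly rectifying channels, chiefly Kir4.1, and let water follow through the aquaporin AQP4 in their endfeet. They also take up synaptic glutamate, turn it into glutamine with glutamine synthetase and hand the glutamine back to neurons. Set against this background are 10 genes of these steps in retinas of *dmbo* mice and of WT mice: the potassium channels *Kcnj10*, *Kcnj2*, *Kcnj16* and *Kcnk2*, the water channel *Aqp4*, the urea transporter *Slc14a1*, the glutamate transporters *Slc1a3* and *Slc1a2*, glutamine synthetase *Glul* and the glutamine transporter *Slc38a3*. All 10 were found by symbol among 21652 genes with 1 symbol in the table, and each was read from its brightest probe set over the 8 arrays (11 probe sets of 28350 carry these symbols).

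The 4 *dmbo* mice are homozygous for *dumbo*, a premature stop codon that the study places in the first exon of the homeobox transcription factor gene *Hmx1*. The 4 WT mice are the controls. The strain given for both groups is C57BL/6J, the age of all mice was postnatal day 15 (P15), and RNA came from whole retinas, isolated one by one and hybridized to Affymetrix Mouse Gene 1.0 ST arrays. The *dmbo* line and the WT mice were bought from different suppliers, and the *dmbo* line was backcrossed to C57BL/6J, also to clear the *Rd1* mutation, so that colony and genotype cannot be told apart. Values are log2 signals from RMA, a method that removes background, gives all arrays the same distribution and combines the probes of a probe set. A gene passed the test at an adjusted p under 0.1 from limma, a linear model over all probe sets with a shared estimate of the spread and Benjamini-Hochberg adjustment.

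HMX1 binds the motif CAAGTG, and the promoters of these genes were therefore read for it. RefSeq promoter sequences of assembly GRCm38.p6 run over 250 bases before and 50 bases after a gene's start. They were used for 7 of the 10 genes, with 13 promoters. No entry was used for *Aqp4*, *Slc38a3* and *Slc14a1*. CAAGTG was searched on both strands (CACTTG on the other) and occurred in 2 of these genes, *Kcnk2* and *Kcnj16*, in 1 promoter each. Of 32851 promoters of all genes 13.6% hold it. Both matches lie after the start, and the stretches around them are shown with the motif in capitals, for *Kcnk2* at chr1:189402227-189402256 on the minus strand and for *Kcnj16* at chr11:111023890-111023909 on the plus strand.
Kcnk2: ggcttgttaggaCAAGTGactctgttttgg
Kcnj16: aagaagaaaaccCAAGTGgg
The promoters of *Kcnj10* and *Slc1a3*, which were higher in *dmbo* retinas, hold no CAAGTG in this window. The 250 bases before their starts are shown, since *Kcnj10* and *Slc1a3* are the genes with a change for which a promoter entry was used. These stretches lie at chr1:172340960-172341209 on the plus strand for *Kcnj10* and at chr15:8710808-8711057 on the minus strand for *Slc1a3*. Capitals mark the shorter motif CAAG, which lies inside CAAGTG, on either strand (CTTG on the other), with 3 matches in each. It occurs in 90.6% of all promoters, so its presence sets neither gene apart.
Kcnj10: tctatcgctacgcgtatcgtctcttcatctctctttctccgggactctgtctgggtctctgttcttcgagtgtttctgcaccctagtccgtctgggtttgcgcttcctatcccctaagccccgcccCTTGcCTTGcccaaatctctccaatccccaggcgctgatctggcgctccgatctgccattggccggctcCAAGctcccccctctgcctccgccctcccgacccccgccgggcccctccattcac
Slc1a3: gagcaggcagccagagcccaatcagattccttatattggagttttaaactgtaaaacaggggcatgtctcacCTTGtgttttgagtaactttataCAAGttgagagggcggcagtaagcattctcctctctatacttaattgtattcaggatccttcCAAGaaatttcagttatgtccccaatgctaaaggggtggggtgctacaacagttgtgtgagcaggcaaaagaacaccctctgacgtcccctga
A match is a string of letters and no measured binding site. Neither gene with a CAAGTG match passed the test. *Aqp4* and *Slc14a1*, which also rose, were not searched, nor were bases further than 50 after a start, so these matches do not bear on whether the genes that rose hold the motif.

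Of the 10 genes, 4 passed the test and all 4 were higher in *dmbo* retinas: *Kcnj10*, *Aqp4*, *Slc1a3* and *Slc14a1*. Among all genes 0.79% passed, 0.374% as higher and 0.416% as lower (171 of 21652, 81 and 90), and among all probe sets 0.78%. The changes were small, 1.23-fold at most. With a change of at least 1.2-fold as a further condition, which 0.633% of all genes met, 3 of the 10 remained, and *Slc1a3*, at 1.199-fold, fell just short of it. None passed at an adjusted p under 0.05. In the same 4 genes every *dmbo* array lay above every WT array. Groups that do not overlap were seen in 5.83% of all genes, and in 2.59% with *dmbo* as the higher group. The median log2 fold change was 0.07 over the 10 genes and 0.00 over all genes. Above 0 were 9 of the 10, and 11475 of the 21652 genes in all. In RNA of whole retina, a change in the number of cells of a type and a change in RNA per cell cannot be told apart.

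**Figure D1:**
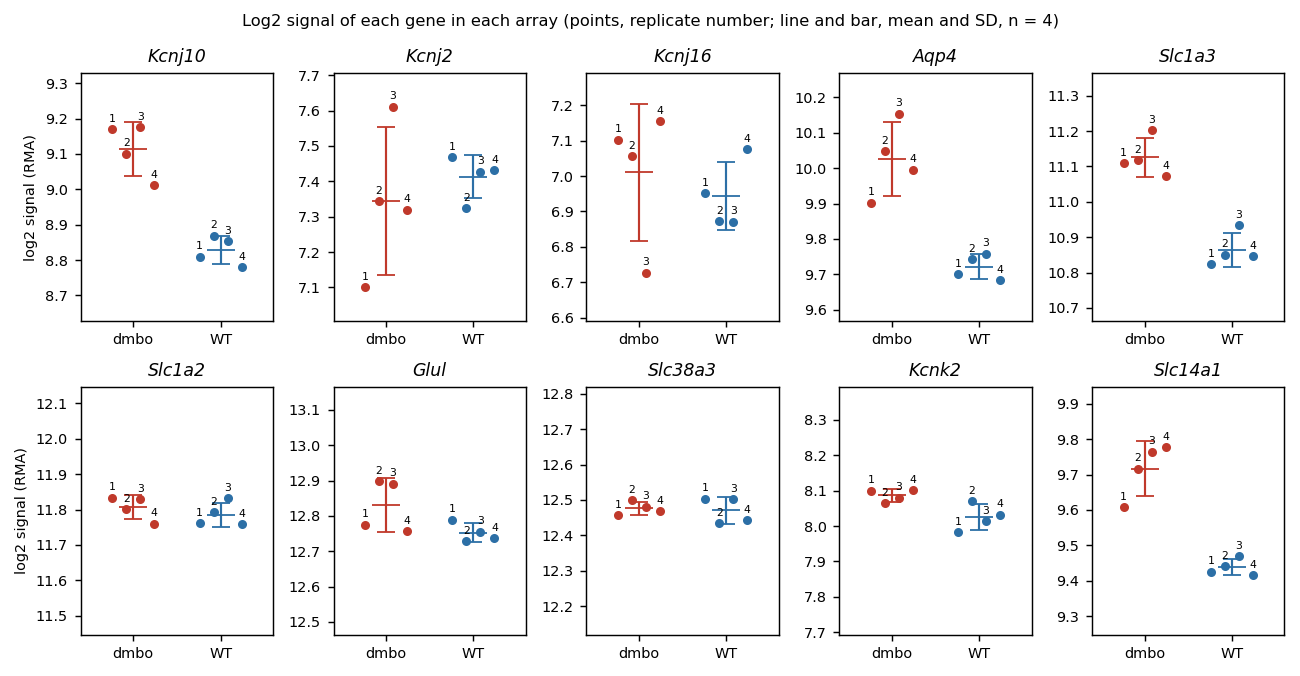
Log2 RMA signal of the 10 genes in each array, *dmbo* on the left and WT on the right of each panel. Points are arrays with their replicate number, lines and bars are the mean and SD of 4 arrays, each panel has its own level on the y axis over an equal range, and the groups do not overlap in *Kcnj10*, *Aqp4*, *Slc1a3* and *Slc14a1*.

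The arrays differed in what else they carried. The median log2 signal, which the normalization largely sets, was between 8.19 and 8.28 in all arrays, and the correlation between arrays was between 0.989 and 0.997. Crystallins of the lens, as the mean of 16 genes, had a log2 signal of 8.48 to 12.52 in *dmbo* arrays and 7.60 to 9.09 in WT arrays (exact permutation test, two-sided p = 0.0571, smallest possible 0.0286). *Dmbo* replicates 1 and 2 carried both *Xist*, the female RNA that silences an X chromosome, and transcripts of the Y chromosome, so that RNA of a single mouse is not certain there. *Dmbo* replicates 3 and 4 and WT replicate 2 carried *Xist* with low Y-linked signal, and WT replicates 1, 3 and 4 the opposite. *Hmx1* itself averaged 8.25 ± 0.13 in *dmbo* retinas and 8.25 ± 0.04 in WT retinas (SD, n = 4 each), and a point mutation need not lower the transcript, so that its level does not check the labels. The labels call the arrays biological replicates.

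Among the potassium channels, *Kcnj10* rose and the other 3 did not pass. *Kcnj10* encodes Kir4.1, the main potassium channel of Müller glia. Its probe set of 25 probes lies on chromosome 1 from 174271341 to 174304216 on the plus strand, in the coordinates of the deposited table, which names no genome build. *Kcnj10* had 9.17, 9.10, 9.18 and 9.01 log2 signal in *dmbo* replicates 1 to 4, against 8.81, 8.87, 8.85 and 8.78 in WT replicates 1 to 4. The lowest *dmbo* array, replicate 4, stood 0.14 above the highest WT array. The group means were 9.11 ± 0.08 in *dmbo* retinas and 8.83 ± 0.04 in WT retinas, a log2 fold change of 0.29 ± 0.05 (SE, 95% interval 0.18 to 0.40), with an adjusted p of 0.0510 from limma.

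*Kcnj2* encodes Kir2.1, a strongly rectifying channel, and *Kcnj16* encodes Kir5.1, which forms channels together with Kir4.1. Their genes are neighbours on chromosome 11, at 110927478 to 110936965 and at 110880899 to 110889282. *Kcnj2* had 7.10, 7.34, 7.61 and 7.32 log2 signal in *dmbo* replicates 1 to 4, against 7.47, 7.33, 7.43 and 7.43 in WT replicates 1 to 4. The *dmbo* arrays lay on both sides of the WT arrays, with an SD of 0.21 in *dmbo* and 0.06 in WT, and the log2 fold change was -0.07 ± 0.09 (SE, adjusted p = 0.972). *Kcnj16* had 7.10, 7.06, 6.73 and 7.15 log2 signal in *dmbo* replicates 1 to 4, against 6.95, 6.87, 6.87 and 7.08 in WT replicates 1 to 4. Replicate 3, the highest *dmbo* array for *Kcnj2*, was the lowest for *Kcnj16*. The log2 fold change of *Kcnj16* was 0.07 ± 0.09 (SE, adjusted p = 0.973), and the 95% intervals, -0.28 to 0.14 for *Kcnj2* and -0.14 to 0.27 for *Kcnj16*, leave room for a change of either sign.

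*Kcnk2* encodes TREK-1, a two-pore-domain channel that opens with membrane stretch and carries a background potassium current. It had 8.10, 8.06, 8.08 and 8.10 log2 signal in *dmbo* replicates 1 to 4, against 7.98, 8.07, 8.01 and 8.03 in WT replicates 1 to 4. The groups overlapped by 1 array only, *dmbo* replicate 2 lying just below WT replicate 2. The log2 fold change was 0.06 ± 0.04 (SE, 95% interval -0.03 to 0.15), with an adjusted p of 0.842 from limma.

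No other channel of either potassium channel family passed. Of 12 further inwardly rectifying channels none passed in limma (2 at an unadjusted p under 0.05, against 1678 of all 21652 genes), 6 were above 0 and 6 below, and their median log2 fold change was -0.01. The lowest p of these belonged to *Kcnj6* and *Kcnj3*, subunits of channels opened by G proteins, with log2 fold changes of -0.25 (adjusted p = 0.252) and -0.14 (adjusted p = 0.549). Of 13 further two-pore-domain channels none passed either (0 at an unadjusted p under 0.05), with a median of 0.05. The lowest p of these belonged to *Kcnk4* at -0.11 (adjusted p = 0.686) and *Kcnk5* at 0.12 (adjusted p = 0.729).

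The genes for water and urea transport both rose. *Aqp4* encodes the water channel of glial endfeet at vessels and at the inner limiting membrane. *Aqp4* had 9.90, 10.05, 10.15 and 9.996 log2 signal in *dmbo* replicates 1 to 4, against 9.70, 9.74, 9.76 and 9.68 in WT replicates 1 to 4. The lowest *dmbo* array was replicate 1, and it lay 0.14 above the highest WT array. The means were 10.03 ± 0.11 in *dmbo* retinas and 9.72 ± 0.04 in WT retinas, a log2 fold change of 0.30 ± 0.06 (SE, 95% interval 0.18 to 0.43), with an adjusted p of 0.0727 from limma. This was the largest fold change of the 10 genes, and its interval overlapped those of the other 3 genes that rose. The *Aqp4* probe set lies on chromosome 18 at 15551320 to 15569491 on the minus strand, with 47 probes.

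*Slc14a1* encodes the urea transporter UT-B, which also passes water. It had 9.61, 9.72, 9.77 and 9.78 log2 signal in *dmbo* replicates 1 to 4, against 9.43, 9.44, 9.47 and 9.42 in WT replicates 1 to 4. The WT arrays were close together and replicate 1 was the lowest *dmbo* array, as for *Aqp4*. *Slc14a1* averaged 9.72 ± 0.08 in *dmbo* retinas and 9.44 ± 0.02 in WT retinas, a log2 fold change of 0.28 ± 0.05 (SE, 95% interval 0.17 to 0.39), with an adjusted p of 0.0509 from limma. The *Slc14a1* probe set, with 35 probes, lies on the same chromosome as *Aqp4*, from 78296830 to 78320061 on the minus strand.

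None of 12 other aquaporins and urea transporters passed (2 at an unadjusted p under 0.05), and their median log2 fold change was 0.05. *Aqp11*, an aquaporin of intracellular membranes, had one of -0.20 (adjusted p = 0.313). *Mip*, the aquaporin of lens fibre cells, had one of 2.03 (adjusted p = 0.536), with 7.22 to 11.52 log2 signal in *dmbo* arrays and 7.13 to 7.59 in WT arrays, so that its spread followed that of the lens crystallins. Of 17 genes listed for channel anchoring in glial endfeet none passed (3 at an unadjusted p under 0.05), with a median of 0.01. That list also holds *Trpv4*, itself a channel gene, and *Cav1*. In this list *Mlc1*, a membrane protein of glial endfeet, stood at a log2 fold change of 0.20 (adjusted p = 0.244) and *Utrn*, the dystrophin relative utrophin, had one of -0.13 (adjusted p = 0.581).

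**Figure D2:**
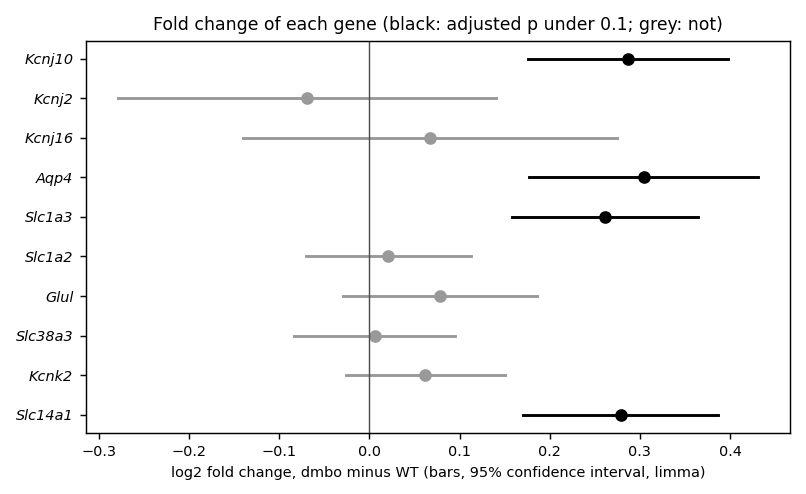
Log2 fold change of the 10 genes, *dmbo* minus WT, with the 95% confidence interval from limma as bars. Black marks the genes with an adjusted p under 0.1, whose log2 fold changes lie between 0.26 and 0.30, while the other 6 intervals include 0.

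Of both glutamate transporters, *Slc1a3* rose and *Slc1a2* did not pass. *Slc1a3* encodes GLAST, also named EAAT1, the main glutamate transporter of Müller glia. *Slc1a3* had 11.11, 11.12, 11.20 and 11.07 log2 signal in *dmbo* replicates 1 to 4, against 10.82, 10.85, 10.93 and 10.85 in WT replicates 1 to 4. The spread within both groups was alike, and the lowest *dmbo* array, replicate 4, lay 0.14 above the highest WT array, replicate 3. The means were 11.13 ± 0.05 in *dmbo* retinas and 10.86 ± 0.05 in WT retinas, a log2 fold change of 0.26 ± 0.05 (SE, 95% interval 0.16 to 0.36), with an adjusted p of 0.0545 from limma. The probe set of 34 probes lies on chromosome 15 from 8584120 to 8660730 on the minus strand.

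*Slc1a2* encodes GLT-1, also named EAAT2, which in the mouse retina is found mainly in cone photoreceptors and bipolar cells. It had 11.83, 11.80, 11.83 and 11.76 log2 signal in *dmbo* replicates 1 to 4, against 11.76, 11.79, 11.83 and 11.76 in WT replicates 1 to 4. The groups covered almost the same range. The log2 fold change was 0.02 ± 0.04 (SE, adjusted p = 0.984), and the 95% interval, -0.07 to 0.11, ends below the interval of *Slc1a3*; the difference between both genes was not tested.

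The genes of the glutamine step lay near their WT levels. *Glul*, glutamine synthetase, had 12.78, 12.90, 12.89 and 12.76 log2 signal in *dmbo* replicates 1 to 4, against 12.79, 12.73, 12.76 and 12.74 in WT replicates 1 to 4. *Dmbo* replicates 2 and 3 were above all WT arrays and replicates 1 and 4 were not, which gave a log2 fold change of 0.08 ± 0.05 (SE, 95% interval -0.03 to 0.19, adjusted p = 0.827). This brightest *Glul* probe set, with 28 probes marked as matching related sequences, lies on chromosome 11 from 19620358 to 19621475. RefSeq places *Glul* on chromosome 1 and lists the pseudogene *Glns-ps1* on chromosome 11, so the source of this signal is uncertain.

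A further *Glul* probe set with 8 probes lies on chromosome 1 from 155747075 to 155756844. It had 12.63, 12.65, 12.66 and 12.54 log2 signal in *dmbo* replicates 1 to 4, against 12.56, 12.52, 12.60 and 12.52 in WT replicates 1 to 4. Both probe sets of *Glul* gave a like result, since the log2 fold change here was 0.07 ± 0.04 (SE, adjusted p = 0.858). *Slc38a3* encodes SNAT3, which carries glutamine across the glial membrane. It had 12.46, 12.50, 12.48 and 12.47 log2 signal in *dmbo* replicates 1 to 4, against 12.50, 12.43, 12.50 and 12.44 in WT replicates 1 to 4. All *dmbo* arrays fell inside the range of the WT arrays, with a log2 fold change of 0.01 ± 0.04 (SE, 95% interval -0.08 to 0.09, adjusted p = 0.997).

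Of 21 other genes for glutamate and glutamine handling none passed (3 at an unadjusted p under 0.05), with 13 above 0, 8 below and a median log2 fold change of 0.01. *Gls2*, a glutaminase, stood at a log2 fold change of 0.17 (adjusted p = 0.232). *Slc17a8*, the vesicular glutamate transporter VGLUT3 of a class of amacrine cells, had one of -0.19 (adjusted p = 0.274).

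Of 20 general markers of Müller glia, *Car14*, a membrane carbonic anhydrase, alone passed. *Car14* had 10.60, 10.59, 10.70 and 10.61 log2 signal in *dmbo* replicates 1 to 4, against 10.30, 10.28, 10.29 and 10.30 in WT replicates 1 to 4. Every *dmbo* array was above every WT array, with a log2 fold change of 0.33 ± 0.04 (SE) and an adjusted p of 0.0104 from limma. It passed with any 1 array left out, but not without *dmbo* replicates 1 and 2 (0.36, adjusted p = 0.131) or with *Xist* as a covariate (0.32, adjusted p = 0.152). Of the 20 genes 8 had an unadjusted p under 0.05, all of them higher in *dmbo* retinas except *Rlbp1*. Above 0 were 16, with a median log2 fold change of 0.09. After *Car14* the lowest p belonged to the membrane protein gene *Cd9* at 0.19 (adjusted p = 0.144), the transcription factor gene *Sox2* at 0.32 (adjusted p = 0.239) and the apolipoprotein gene *Apoe* at 0.20 (adjusted p = 0.289). The 4 genes below 0 were *Rlbp1*, the retinaldehyde-binding protein, at -0.10, *Gpr37* at -0.07, *Crym* at -0.05 and *Sox9* at -0.01, with adjusted p-values of 0.610 to 0.995. These were named after their values were seen. The summed linear signal of the 20 markers was 35236 to 38400 in *dmbo* arrays and 32681 to 34261 in WT arrays, without overlap. Its part in the rise of *Kcnj10*, *Aqp4*, *Slc1a3* and *Slc14a1* was not tested.

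Genes of reactive gliosis, the response of Müller glia to injury, did not pass in any of the 18 measured. Of these, 7 had an unadjusted p under 0.05, 14 were above 0, and the median log2 fold change was 0.11. Their mean log2 signal was 8.03, 8.15, 8.25 and 8.29 in *dmbo* replicates 3, 2, 1 and 4, the order of rising crystallin signal. WT arrays had 7.98 to 8.11, highest in replicate 4, so *dmbo* replicate 3 lay within their range. The part of lens signal in the gliosis list was not tested. *Ednrb*, an endothelin receptor of reactive glia, stood at a log2 fold change of 0.36 (adjusted p = 0.118), and the growth factor gene *Fgf2* had one of -0.24 (adjusted p = 0.137). Among the gliosis genes with an unadjusted p under 0.05, *Fgf2* alone was lower in *dmbo* retinas. Retinal astrocytes also carry *Aqp4*, which is 1 of the 8 genes of their list and the only one that passed. In this list 4 genes, *Aqp4* included, had an unadjusted p under 0.05, 6 were above 0, and the median log2 fold change was 0.25. *Aldh1l1* was at 0.24 (adjusted p = 0.195), *S100b* at 0.20 (adjusted p = 0.373), *Pdgfra* at 0.29 (adjusted p = 0.844) and *Gja1* at 0.74 (adjusted p = 0.670). Like these, named after their values were seen, *Gfap*, the filament gene of astrocytes, stood at a log2 fold change of 0.26 (adjusted p = 0.482), and *Pax2*, the defining factor of retinal astrocytes, one of -0.02 (adjusted p = 0.993). The summed linear signal of the 8 genes was 3136 to 4335 in *dmbo* arrays and 2577 to 2887 in WT arrays, again without overlap. That sum holds *Aqp4* itself, whose groups do not overlap, so it is no separate measure beside the rise of *Aqp4*. The part of astrocyte signal in that rise was not tested. The mean log2 signal of the 8 genes was 8.32, 8.34, 8.47 and 8.68 in *dmbo* replicates 3, 2, 1 and 4. Their crystallin signal rose in the same order, from 8.48 to 12.52. WT arrays had a mean of 8.10 to 8.28. *Gja1* alone ran over 8.66 to 10.31 in *dmbo* arrays and 8.26 to 9.02 in WT arrays. The part of lens signal in the astrocyte list was not tested.

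**Figure D3:**
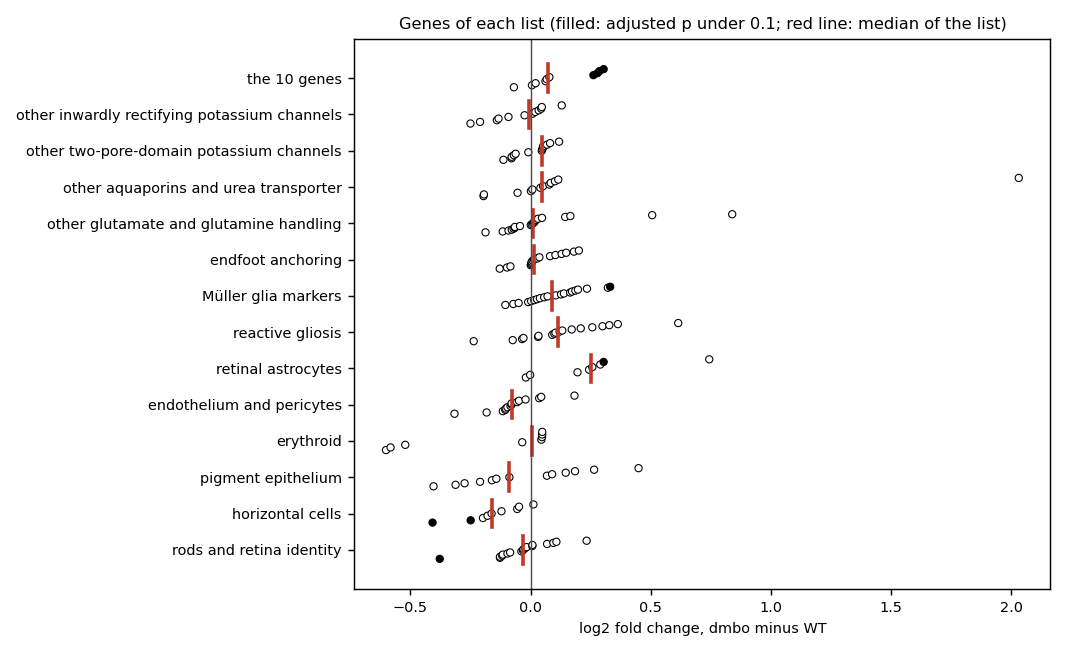
Log2 fold change, *dmbo* minus WT, of each gene of the 10 and of the lists around them; each point is a gene, filled where the adjusted p was under 0.1, and red lines are medians. The filled points are 4 of the 10 genes, *Car14*, *Aqp4* again among astrocyte genes, *Calb1* and *Gja10* of horizontal cells and *Slc6a9*; the lens list, with a median of 1.999, is left out of the plot.

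Markers of other cells were counted in the same way. Among 15 genes of endothelium and pericytes none passed (2 at an unadjusted p under 0.05, median -0.08, *Flt1* 0.18 and *Slco1a4* -0.32), among 8 of red blood cells none (3, median 0.01, *Hbb-b2* -0.60 and *Hbb-b1* -0.58) and among 13 of the pigment epithelium none (0, median -0.09, *Tyr* 0.26 and *Best1* 0.09). All 22 lens genes were above 0 without passing (18 at an unadjusted p under 0.05, median 1.999, *Cryge* 3.49 and *Cryga* 3.27). Of 9 horizontal cell genes *Calb1* and *Gja10* fell, by 0.41 and by 0.25 on the log2 scale; 8 were below 0 and 5 had an unadjusted p under 0.05, with a median of -0.16. With 1 array left out *Calb1* passed in 2 of 8 fits (without *dmbo* replicate 3 or 4) and *Gja10* in 1 (without *dmbo* replicate 4). Of 18 genes of rods and of the retina at large the glycine transporter gene *Slc6a9* fell by 0.38; the median of these genes was -0.03, with 12 below 0 and 2 at an unadjusted p under 0.05. *Slc6a9* passed with any 1 array left out, but not without *dmbo* replicates 1 and 2 (adjusted p = 0.109).

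The signal of lens and of sex-linked transcripts was set beside the 4 genes that rose. Since no *dmbo* array of these genes overlapped a WT array, differences between single arrays are positive in any pairing and are given only for their size. *Dmbo* replicate 3, with crystallin signal of 8.48, minus WT replicate 4, with 9.09, was 0.40 for *Kcnj10*, 0.47 for *Aqp4*, 0.36 for *Slc1a3* and 0.35 for *Slc14a1* on the log2 scale. The mean of *dmbo* replicates 3 and 4 minus WT replicate 2, the 3 arrays with *Xist* and low Y-linked signal, was 0.23 for *Kcnj10*, 0.33 for *Aqp4*, 0.29 for *Slc1a3* and 0.33 for *Slc14a1*. Without *dmbo* replicates 1 and 2 in the fit, the log2 fold changes were 0.27, 0.35, 0.27 and 0.33 in the same order of genes, and the adjusted p-values from limma were 0.565, 0.248, 0.508 and 0.173. With the crystallin signal as a covariate all 4 passed, with log2 fold changes of 0.37 for *Kcnj10*, 0.43 for *Aqp4*, 0.33 for *Slc1a3* and 0.31 for *Slc14a1*. In that fit 3.5% of all probe sets passed, against 0.78% without a covariate. With *Xist* as a covariate the log2 fold changes were 0.29, 0.25, 0.26 and 0.24 in the same order of genes, and none of the 4 passed. There 0.159% of all probe sets passed. Crystallin signal and *Xist* both went with genotype (correlation with group 0.76 and 0.58 over the 8 arrays), so that the fits do not fully separate them. For the covariate and the correlation, *Xist* was taken as linear signal scaled between the lowest and the highest array, not as log2 signal. The crystallins were taken as a log2 mean, so the 2 correlations are not on a like scale.

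**Figure D4:**
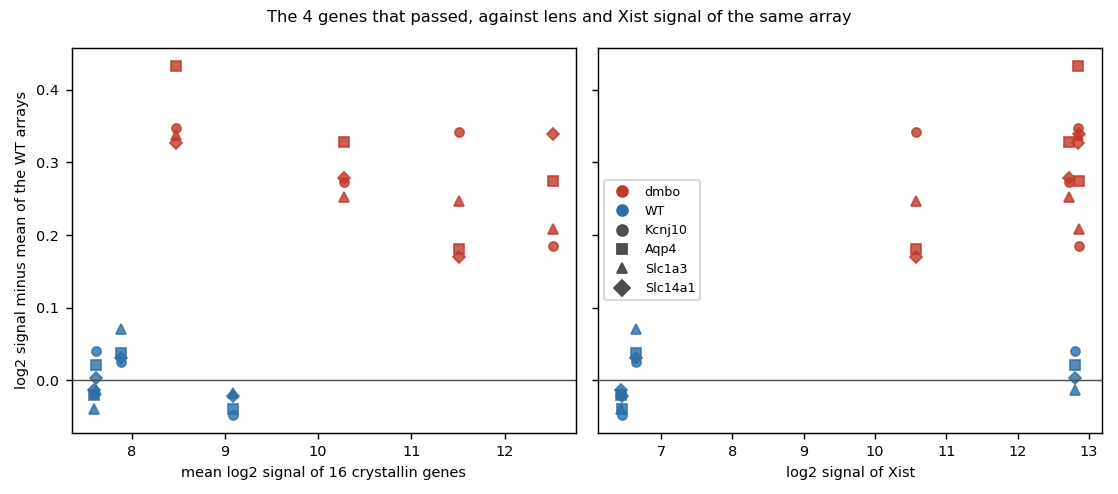
Log2 signal of *Kcnj10*, *Aqp4*, *Slc1a3* and *Slc14a1* in each array, as the difference from the mean of the WT arrays, against the mean log2 signal of 16 crystallin genes (left) and the log2 signal of *Xist* (right). Red points are the *dmbo* arrays and blue points the WT arrays. The groups of these 4 genes do not overlap, so red lies above blue throughout; the crystallin signal runs over 8.48 to 12.52 in *dmbo* arrays and 7.60 to 9.09 in WT arrays, and 1 WT array has high *Xist*.

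The calls also depended on single arrays. Leaving out 1 array at a time, between 0 and 4 of the 10 genes passed. None passed without *dmbo* replicate 2 or without WT replicate 1, 2 or 4, and only *Slc1a3* without WT replicate 3. *Aqp4* and *Slc14a1* passed without *dmbo* replicate 1, *Aqp4* and *Slc1a3* without replicate 3, and all 4 without replicate 4. The direction of all 4 was the same each time, which the lack of overlap between their groups fixed in advance. After centring each array on its median, *Slc14a1* alone passed.

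**Figure D5:**
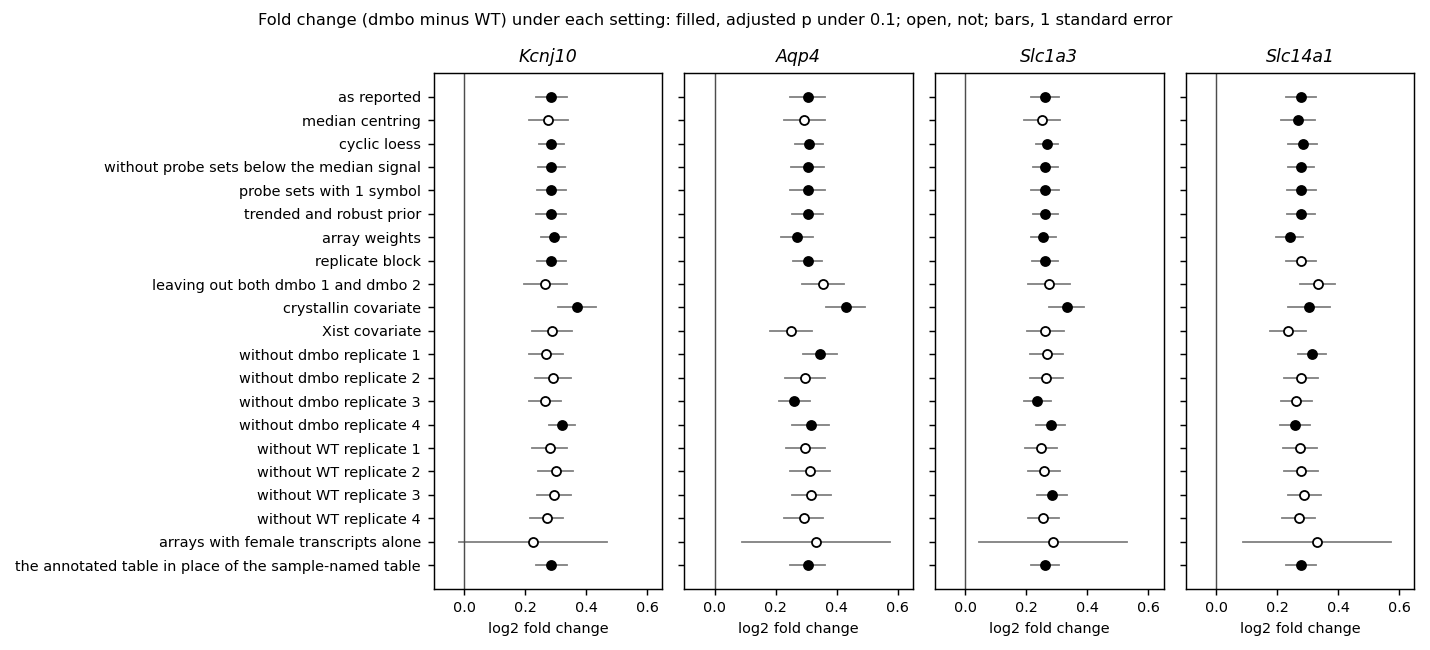
Log2 fold change, *dmbo* minus WT, of the 4 genes that rose, under each way of processing or choice of arrays, with bars of 1 standard error; filled points have an adjusted p under 0.1. All points lie above 0, between 0.23 and 0.43, and about as many are open as filled.

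Within a group the 10 genes did not share an order of arrays. *Dmbo* replicate 1 was the lowest of its group for 4 genes and the highest for 1, and replicate 3 was the highest for 4 and the lowest for 1. The profile of *Slc14a1* over the 8 arrays, each gene centred on its own mean, was closest to that of *Aqp4*, with a root mean square difference of 0.0468, ahead of *Uhmk1* and *Pcsk5*. That of *Kcnj10* was closest to *Nr4a3* (0.0243), *1700003M02Rik* and *Bmp15*, that of *Aqp4* to *Ift57* (0.0354), *3830406C13Rik* and *Gbe1*, and that of *Slc1a3* to *Dpysl3* (0.0395), *1700003M02Rik* and *Bmp15*. These are descriptions over 8 arrays that share the split between both groups.

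Probe sets near each of the 10 genes on their chromosomes were counted as well. Of 157 other probe sets within 5 Mb of *Kcnj10*, 7 passed (4.46%), 3 as higher and 4 as lower in *dmbo* retinas, and of 86 around *Slc14a1* 4 passed (4.65%), against the 0.78% of all probe sets. Around the other 8 genes, *Aqp4* and *Slc1a3* among them, none passed of 51 to 231. In windows of that size the share of all probe sets also gives few or none. *Igsf9*, an immunoglobulin superfamily gene close to *Kcnj10* that was named after its values were seen, averaged 10.43 ± 0.13 in *dmbo* retinas and 9.87 ± 0.02 in WT retinas (SD, n = 4 each), with an adjusted p of 0.00605, and passed with any 1 array left out, but not without *dmbo* replicates 1 and 2 (adjusted p = 0.116). With 1 array left out, 2 to 11 of the probe sets around *Kcnj10* passed (1.27% to 7.01%, lowest without *dmbo* replicate 2 or WT replicates 1, 2 or 3) and 1 to 4 of those around *Slc14a1* (1.16% to 4.65%, lowest without *dmbo* replicate 1 or WT replicate 3), against 0.307% to 0.864% of all probe sets. Without *dmbo* replicates 1 and 2, 1 probe set passed around each of them (0.637% around *Kcnj10* and 1.16% around *Slc14a1*, against 0.222% of all), and 1 around each with *Xist* as a covariate (0.637% and 1.16%, against 0.159% of all). With the crystallin covariate the shares were 5.1% around *Kcnj10* and 5.81% around *Slc14a1*, against 3.5% of all probe sets.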

How the data were processed

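Retinas of 4 *dmbo* and 4 WT mice at P15 were hybridized to Affymetrix Mouse Gene 1.0 ST arrays. The authors made the deposited log2 signals with RMA, whose version and genome build are not given in the sources used here. Quantile normalization sets equal signal distributions, so that a change in total RNA is not seen. Both deposited tables hold the same 28350 probe sets with equal values. The authors' comparison columns (means, fold changes, t, p and adjusted p) were not used. Of the probe sets, 25004 carry 1 symbol, 3344 none and 2 several.

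From the log2 values, *dmbo* minus WT was fitted with limma 3.58.1 in R 4.3.3, which is not a plain t-test, on all probe sets, with Benjamini-Hochberg adjustment and a threshold of 0.1, after the study's methods, which also asked for a change of at least 1.2-fold; here that condition is an alternative. On simulated arrays of the same 28350 probe sets, 90 of 100 changed 1.5-fold and 97 of 100 changed 2-fold were recovered, with 17 false calls. Changes as small as those of the 10 genes, 1.23-fold at most, were not simulated, so the share recovered at that size is not known. The number of arrays limits the precision.

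The members and lists were chosen with earlier results of these data known. Genes named from a list were up to 3 of those that passed, by lowest p, or the 2 of lowest p where none did, and the 3 genes closest in profile to each member that passed; others are marked in the text. Replicate numbers were not taken as pairs. The alternatives were median centring, cyclic loess, a filter on dim probe sets, 1 symbol alone, a trended prior, array weights, a replicate block, lens and *Xist* covariates, other thresholds and probe sets, and leaving out arrays. The arrays with *Xist* and low Y-linked signal alone were added after seeing the data.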

Additional observations from a re-analysis of the deposited data

Results flagged for a closer look

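In 78 groups of 4 arrays, 6 held an array far from the other 3, where chance marks about 1 in 20 groups, and none of the 20 groups of the potassium, water, urea, glutamate and glutamine genes did. *Slco1a4*, a transporter gene of vessel endothelium, had 7.66 log2 signal in *dmbo* replicate 1, below 7.96 to 8.02 in the other *dmbo* arrays. *Cryge*, a lens crystallin gene, had 9.26 in WT replicate 4, above 7.43 to 7.56 in the other WT arrays. *Xist* had 10.58 in *dmbo* replicate 1, below 12.73 to 12.87 in the other *dmbo* arrays, and 12.80 in WT replicate 2, above 6.44 to 6.65 in the other WT arrays. The Y-linked gene *Kdm5d* had 6.70 in WT replicate 2, below 9.26 to 9.41 in the other WT arrays. The mean of 4 Y-linked genes was 5.86 in WT replicate 2, below 9.92 to 10.05 in the other WT arrays.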

How the results depend on the processing

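*Kcnj10*, *Aqp4*, *Slc1a3* and *Slc14a1* kept their direction in all 20 alternative settings, and passed in 9, 11, 11 and 10 of them. Their groups do not overlap, so leaving out arrays could not turn the direction. Filters, the prior and the replicate block left the fold changes as they were. The other deposited table, with equal values, repeats the reported fit and counts among the settings passed. Of the 10 genes, 4 passed as reported, 1 after median centring, and 0 with *Xist* as a covariate, without *dmbo* replicates 1 and 2, with the 3 arrays of *Xist* and low Y-linked signal alone (1 residual degree of freedom), or at an adjusted p under 0.05 or 0.01. Leaving out 1 array at a time gave 0 to 4. The number of probe sets that passed was 221, and 378 without dim probe sets, 401 with a trended and robust prior, 614 with array weights, 63 without *dmbo* replicates 1 and 2, 991 with the crystallin covariate, 45 with the *Xist* covariate, 71 with those 3 arrays and 87 to 245 with 1 array left out. No setting moved the median of all probe sets by over 0.1. The median of the 10 genes, 0.07 as reported, was 0.15 with the crystallin covariate, 0.11 without *dmbo* replicate 3, 0.12 in those 3 arrays, and 0.26 over the 7 genes left without dim probe sets. The cause of these differences was not tested; smaller sets of arrays have fewer samples.

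The labels number the replicates 1 to 4 in both groups without saying that a number marks a pair. The deviations of same-numbered arrays correlated at -0.03, -0.02, 0.03 and 0.43, and only number 4 had its own number as best partner. With the replicate block 145 probe sets and 3 of the 10 genes passed, and *Slc14a1* was lost (adjusted p = 0.113 from limma).

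Signs turned only in genes that had not passed. *Kcnj2* was 0.053 without *dmbo* replicates 1 and 2, 0.13 with the crystallin covariate, -0.16 to 0.012 with 1 array left out (positive without *dmbo* replicate 1) and 0.14 in the 3 arrays. *Kcnj16* was -0.0023 without *dmbo* replicates 1 and 2 and -0.21 with the crystallin covariate. *Slc38a3* was -0.0044 after median centring and -0.0064 to 0.017 with 1 array left out (negative without *dmbo* replicate 2, WT replicate 2 or WT replicate 4).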
